A study of Mus musculus with 12 samples.

Results

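Transcripts that mark the mammary epithelium and milk were followed in RNA-seq libraries of sorted neutrophils. They are 10 of the 55335 genes counted in each library, chosen by symbol in 4 groups, namely the luminal keratins Krt8, Krt18 and Krt19, the basal keratins Krt14 and Krt5, the adhesion proteins Epcam and Cdh1, and the milk proteins Csn2, Csn3 and Wap. The choice was made with earlier results of these data known, and all 10 were present in every count table. The study compared tumor-associated neutrophils (TANs) from PyMT and from PyMT-Cxcr2-/- animals with bone marrow (BM) neutrophils from WT animals, with 4 mice and 4 libraries in each group. All animals had an FVB background, were 10 weeks old and were housed under SOPF (specific and opportunistic pathogen free) conditions. PyMT mice carry the polyoma virus middle T oncogene, which is active in the mammary epithelium, and their mammary glands form tumors. PyMT-Cxcr2-/- mice carry the same oncogene and lack the chemokine receptor Cxcr2 in every tissue, the tumor cells included. WT mice carried neither change and had no tumor, so that the tissue (tumor or marrow) and the presence of a tumor cannot be told apart in a comparison of TANs with WT BM neutrophils. TANs came from digested mammary tumors, and all neutrophils were enriched on CD11b and then sorted as CD45+ CD11b+ Ly6G+ F4/80- cells. The middle T transgene itself was not analysed here.

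The mammary gland is a bilayered epithelium. Luminal cells line the ducts and alveoli and make Krt8, Krt18 and Krt19, and basal or myoepithelial cells surround them and make Krt14 and Krt5. Keratins assemble as pairs of a type II and a type I chain, Krt8 with Krt18 and Krt5 with Krt14. Epcam, a cell surface adhesion molecule, and Cdh1, the E-cadherin of adherens junctions, are found on epithelial cells in general. Csn2 (beta-casein), Csn3 (kappa-casein, which stabilizes the casein micelle) and Wap (whey acidic protein) are secreted into milk by alveolar luminal cells under the control of prolactin and Stat5.

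Several of the genes are neighbors in the mouse genome (mm10, GENCODE M21). Krt8 (chr15:101996698-102004482, minus strand) and Krt18 (chr15:102028180-102032027, plus strand) are separated by 23.7 kb, and Krt5 (chr15:101707070-101712898, minus strand) lies 284 kb from Krt8. Krt19 (chr11:100140810-100148665) and Krt14 (chr11:100203162-100207548), both on the minus strand, are separated by 54.5 kb. Csn2 (chr5:87692624-87699630, minus strand) and Csn3 (chr5:87925579-87932665, plus strand) belong to the casein cluster and lie 226 kb apart. Wap (chr11:6635482-6638637, minus strand), Epcam (chr17:87635979-87651129, plus strand) and Cdh1 (chr8:106603351-106670246, plus strand) have no neighbor among the 10. All counts are over exons of the whole gene. An opposite-strand gene overlaps exons of Krt8 and of Krt5, but never reached more than 6 counts in a library, and the Krt8 pseudogene Krt8-ps held at most 24 counts.

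Since several of these transcripts varied together, as described further on, the 250 bases before the RefSeq start (mm10) were searched on both strands for 4 motifs, in the 7 of 10 genes with a RefSeq promoter sequence. These were TTCNNNGAA (bound by STAT factors), TGANTCA (AP-1), GCCNNNGGC (AP-2) and AACCNGTT (grainyhead-like factors). In 2 of the 7 promoters, 1 match each was found. The 30 bases around each match are shown on the strand of the gene, with the match in capitals, because they carry the only matches among the genes.
Csn2: tcacgtagacTTCTTGGAAttgaagggact
Krt18: cgatcctggcGCCCCCGGCtccggtggctg
The Csn2 stretch is chr5:87699499-87699528 (minus strand), and its STAT motif starts 93 bases before the RefSeq start. In GENCODE it falls in the first exon of the longest Csn2 transcript. The Krt18 stretch is chr15:102028123-102028152 (plus strand), with the AP-2 motif starting 83 bases before the RefSeq start. A STAT motif was present in 7.02% of the 32851 mouse promoters of the same length and an AP-2 motif in 13.7% of them. AP-1 was present in 6.75% and the grainyhead-like motif in 1.79%, and neither was found in the 7 promoters, so that no motif was shared among the genes.

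The libraries held between 25032704 and 51351569 counts on genes. In PyMT TANs, the deleted gene Cxcr2 was at 1198 ± 224 CPM (counts per 1000000 counts, SD, n = 4), and in WT BM neutrophils at 2036 ± 195 CPM. PyMT-Cxcr2-/- TANs, the group labelled as deleted, had 9.39 ± 0.576 CPM. Some libraries stood apart, and all of these were PyMT TANs. In a comparison of the TANs, these features therefore fall on the PyMT side. Among genes with 1 to 20 counts, 65.0% to 74.2% of the counts were even in 10 libraries, but 56.3% in PyMT replicate 3 and 48.2% in PyMT replicate 4, which are also the libraries with the highest levels of most of the 10 genes. In PyMT replicate 3, hemoglobin and other erythroid transcripts summed to 134 CPM, compared to at most 2.55 in the other TAN libraries. PyMT replicates 2 and 3 had 4210 and 3117 genes with 1 to 20 counts, compared to 7500 to 9221 in the other libraries. The part of these features in the results was not tested. In the fits each mouse was left out singly, and some means are given without PyMT replicate 3 or 4. PyMT replicates 3 and 4 were not left out together.

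The 10 transcripts were present in TANs and at or near 0 in WT BM neutrophils. Together they took 0.00538% to 0.0572% of the counts on genes in the TAN libraries. In WT BM libraries, 2 to 18 counts fell on the 10 genes together, and Krt8, Krt19, Krt14, Krt5, Csn2 and Csn3 had no count in any of the 4. Over the 4 BM libraries, 3 counts correspond to 0.022 CPM, which is used as the upper limit for those 6 genes. In bulk libraries, fewer cells with a transcript and less of it per cell cannot be told apart.

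**Figure D1:**
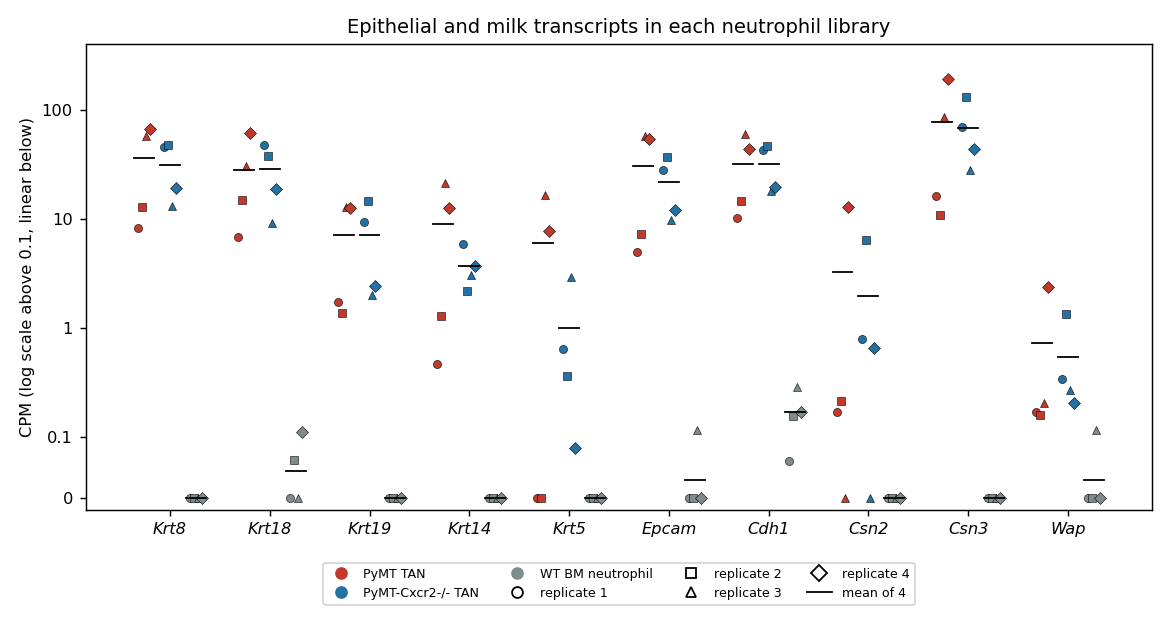
CPM of the 10 transcripts in each of the 12 libraries (y axis, logarithmic above 0.1 CPM and linear below), with 1 point per mouse, the symbol giving the replicate number and a line at the mean of 4. Krt8, Krt18, Krt19, Krt14, Epcam, Cdh1, Csn3 and Wap were higher in all 8 TAN libraries than in all 4 WT BM libraries, whereas the PyMT and PyMT-Cxcr2-/- TANs overlapped for all 10.

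Krt8, the luminal type II keratin, had 8.27, 12.7, 56.9 and 66.0 CPM in PyMT TANs, whereas the PyMT-Cxcr2-/- libraries had 45.2, 47.9, 13 and 19.3 CPM (replicates 1 to 4 in each case). Its partner Krt18 had 6.83, 14.7, 30.5 and 60.5 CPM in PyMT TANs, whereas the PyMT-Cxcr2-/- libraries had 47.9, 37.7, 9.05 and 18.6 CPM, compared to 0 to 4 counts in WT BM libraries. Krt19, which marks luminal cells of the ducts, had 1.71, 1.36, 12.7 and 12.5 CPM in PyMT TANs, whereas the PyMT-Cxcr2-/- libraries had 9.41, 14.6, 1.98 and 2.43 CPM. For these 3 keratins, replicates 3 and 4 were the high libraries among PyMT TANs, and replicates 1 and 2 among PyMT-Cxcr2-/- TANs. Every TAN library was above every WT BM library. Compared to the upper limit in WT BM neutrophils, Krt8 was at least 1633-fold higher in PyMT TANs and at least 1423-fold higher in those lacking Cxcr2, and Krt19 at least 320-fold and 322-fold higher. For Krt18, with 6 counts in WT BM neutrophils, the ratio was 654 (95% counting interval 300 to 1782) in PyMT TANs and 642 (295 to 1750) in PyMT-Cxcr2-/- TANs. These exact intervals and the upper limit cover counting error only, not the spread between mice. As most low counts were even, the intervals may be too narrow and the limit too low. The folds over the limit use the mean of the 4 TAN libraries.

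The basal keratins were uneven between PyMT mice. Krt14 had 0.464, 1.28, 21.4 and 12.6 CPM in PyMT TANs, whereas the PyMT-Cxcr2-/- libraries had 5.83, 2.18, 3.06 and 3.68 CPM. Krt5, its partner, had no count in PyMT replicates 1 and 2, 16.4 and 7.67 CPM in replicates 3 and 4, whereas the PyMT-Cxcr2-/- libraries had 0.641, 0.359, 2.93 and 0.0822 CPM. Above the upper limit in WT BM neutrophils, Krt14 was at least 406-fold and Krt5 at least 273-fold higher in PyMT TANs, with at least 167-fold and 45.6-fold in those lacking Cxcr2. The Krt5 levels of PyMT TANs overlapped with those of WT BM neutrophils, since 2 libraries of the former were at 0. The PyMT mean of Krt14 was 8.94 ± 9.99 CPM with replicate 3 and 4.78 ± 6.77 CPM without it, and that of Krt5 was 6.02 ± 7.81 with it and 2.56 ± 4.43 without it. Without PyMT-Cxcr2-/- replicate 3, the Krt5 mean of PyMT-Cxcr2-/- TANs went from 1 ± 1.31 to 0.361 ± 0.279 CPM.

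Both adhesion transcripts were high in the same TAN libraries as the luminal keratins. Epcam had 4.98, 7.19, 57.4 and 53.4 CPM in PyMT TANs, whereas the PyMT-Cxcr2-/- libraries had 28.0, 36.5, 9.67 and 12.1 CPM, compared to 4 counts in 1 of the WT BM libraries and none in the others. Cdh1 had 10.2, 14.4, 60.3 and 43.2 CPM in PyMT TANs, whereas the PyMT-Cxcr2-/- libraries had 42.6, 46.9, 17.8 and 19.6 CPM. Cdh1 was the transcript with counts in all 4 WT BM libraries (2, 5, 10 and 6), which gives 0.167 ± 0.0930 CPM. The Cdh1 ratio of TANs to WT BM neutrophils was 178 (118 to 280.0) for PyMT and 185 (123 to 292) for PyMT-Cxcr2-/-, and the Epcam ratio was 997 (389 to 3661) and 715 (279 to 2624), with 95% counting intervals.

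Among milk proteins, Csn3 was measured at 10.9 CPM or more in every TAN library, while Csn2 and Wap were below 1 CPM in most. Csn3 had 16.1, 10.9, 86.2 and 193 CPM in PyMT TANs, whereas the PyMT-Cxcr2-/- libraries had 69.2, 132, 27.8 and 43.8 CPM. This was at least 3475-fold and 3093-fold higher than the upper limit in WT BM neutrophils. Csn2 had 0.169, 0.214, 0 and 12.7 CPM in PyMT TANs, whereas the PyMT-Cxcr2-/- libraries had 0.792, 6.34, 0 and 0.658 CPM. PyMT replicate 4 thus held 612 of the 628 Csn2 counts of its group, and PyMT-Cxcr2-/- replicate 2 held 247 of 321. Wap had 0.169, 0.160, 0.205 and 2.37 CPM in PyMT TANs, whereas the PyMT-Cxcr2-/- libraries had 0.339, 1.33, 0.269 and 0.206 CPM, that is 6 to 18 counts in all but the same 2 libraries, which had 114 and 52. Without PyMT replicate 4, the PyMT mean went from 3.28 ± 6.31 to 0.127 ± 0.113 CPM for Csn2, from 76.6 ± 84.9 to 37.7 ± 42.1 for Csn3, from 0.727 ± 1.10 to 0.178 ± 0.0236 for Wap and from 28.1 ± 23.7 to 17.3 ± 12.1 for Krt18. Without PyMT-Cxcr2-/- replicate 2, the mean of its group went from 1.95 ± 2.95 to 0.483 ± 0.424 CPM for Csn2, from 0.537 ± 0.535 to 0.271 ± 0.0669 for Wap and from 7.10 ± 6.04 to 4.61 ± 4.17 for Krt19. The mean of Csn2 was at least 149-fold above the upper limit in PyMT TANs and at least 88.4-fold in those lacking Cxcr2. Wap had 4 counts in WT BM neutrophils. Its ratio was 28.1 (95% counting interval 10.7 to 105) in PyMT TANs and 16.7 (6.33 to 62.7) in PyMT-Cxcr2-/- TANs. The Csn2 levels overlapped with WT BM neutrophils in both groups of TANs.

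Per length of the longest coding transcript (RPKM), the order of the mean levels in PyMT TANs was Csn3 (48.0 ± 53.2), Krt18 (19.6 ± 16.5), Krt8 (18.4 ± 15.2), Epcam (15.1 ± 14), Cdh1 (7.23 ± 5.40), Krt14 (5.26 ± 5.89), Krt19 (4.48 ± 4.05), Krt5 (2.74 ± 3.56), Csn2 (2.47 ± 4.75) and Wap (1.32 ± 1.99). In PyMT-Cxcr2-/- TANs, the first 5 were in the same order, from Csn3 at 42.7 ± 28.6 RPKM to Cdh1 at 7.16 ± 3.42, followed by Krt19 (4.5 ± 3.83), Krt14 (2.17 ± 0.915), Csn2 (1.47 ± 2.22), Wap (0.975 ± 0.97) and Krt5 (0.457 ± 0.595). No neighbors in either order differed by more than the larger of their SDs (n = 4). Counts were over all exons, which span 4152 bases for Csn3, 6926 for Csn2 and 1008 for Wap. The transcripts used here span 1596, 1329 and 551 bases, so that the places of the milk proteins depend on the length chosen.

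In the fit across all genes (edgeR quasi-likelihood, Benjamini-Hochberg adjusted p under 0.05 and at least 1.5-fold), Krt5, Csn2 and Wap did not pass the filter on low counts for comparisons with WT BM neutrophils. The 7 others were called higher in PyMT TANs, where 30.1% of the 17153 genes tested were called higher, and in PyMT-Cxcr2-/- TANs, where 34.4% of 17732 were. Because these 7 are at or near 0 in WT BM neutrophils, they passed the filter through their level in TANs and had to differ, so that 7 of 7 is a description. Of all 10 genes, 8 in PyMT TANs and 9 in PyMT-Cxcr2-/- TANs had every TAN library above every WT BM library, a separation found for 28.8% and 32.2% of the genes tested. These counts are a description too, since 6 of the 10 had no count in WT BM neutrophils and any count in TANs separates them. The shares are over genes that passed the filter, which Krt5, Csn2 and Wap did not. As a further description, the fitted log2 fold change of Cdh1, with counts in all WT BM libraries, was 7.62 ± 0.721 (SE) in PyMT TANs and 7.67 ± 0.491 in PyMT-Cxcr2-/- TANs. Krt18 had 9.29 ± 0.944 and 9.36 ± 0.839, which became 10.26 and 10.38 without WT BM replicate 4, the library with 4 of its 6 counts. Both comparisons use the same 4 WT BM libraries. The 7 calls of each comparison remained when any of the 8 mice was left out, PyMT replicates 3 and 4 included.

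The TANs with and without Cxcr2 were compared next, and the spread between mice was wide. Of the 10 genes, 0 were called, 0 had an unadjusted p under 0.05 and DESeq2 called 0, while 1.98% of the 18463 genes tested were called. The PyMT-Cxcr2-/- and PyMT levels overlapped for all 10 genes, and 12% of all genes tested did not overlap. Krt8 had a log2 fold change of -0.20 (95% interval -1.82 to 1.41), Krt18 of 0.01 (-1.58 to 1.59) and Krt19 of 0.01 (-1.89 to 1.91). For Cdh1 the log2 fold change was -0.02 (-1.27 to 1.24), the narrowest interval of the 10, and for Epcam -0.51 (-2.38 to 1.35). Csn3 was at -0.17 (-2.17 to 1.83), and Csn2 at -0.77 with the widest interval (-5.02 to 3.48). Krt14 (-1.28, -3.40 to 0.85) and Krt5 (-2.58, -6.72 to 1.56) had the lowest estimates, with mean levels of 3.69 ± 1.55 against 8.94 ± 9.99 CPM and of 1 ± 1.31 against 6.02 ± 7.81 CPM. The edgeR adjusted p was 0.622 for Krt14 and 0.597 for Krt5. Both estimates depended on PyMT replicate 3, without which they were -0.37 for Krt14 and -1.34 for Krt5, and the Krt5 estimate was -4.01 without PyMT-Cxcr2-/- replicate 3. The intervals do not show that the groups are alike. They include changes of more than 2-fold in either direction for 9 of the 10 genes, Krt14 being bounded at 0.85 on the higher side. The median log2 fold change over the 10 genes was -0.33, compared to -0.07 over all genes tested.

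**Figure D2:**
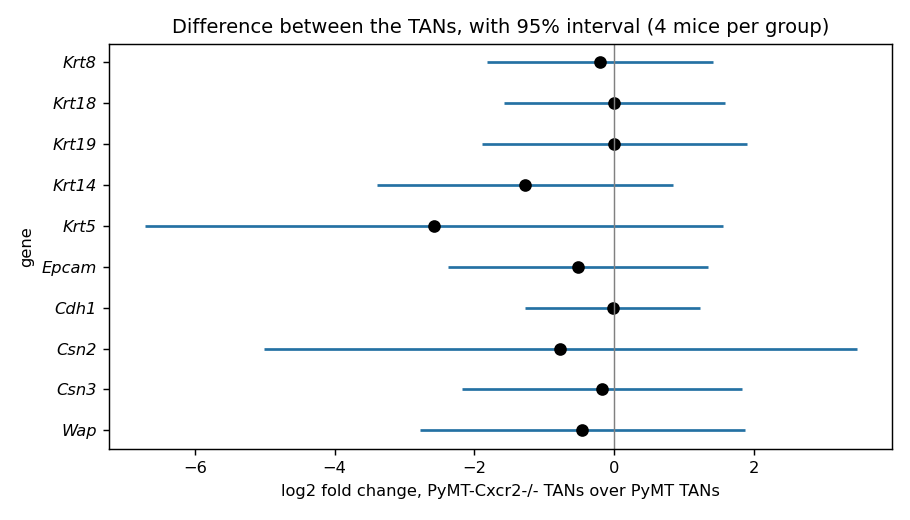
Log2 fold change of PyMT-Cxcr2-/- TANs over PyMT TANs for the 10 transcripts (x axis), with the point at the edgeR estimate and the line covering its 95% interval, from 4 mice per group. Every interval includes 0, and those of Krt5 (-6.72 to 1.56) and Csn2 (-5.02 to 3.48) are the widest.

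Within each group of TANs the levels differed widely between mice. Among PyMT TANs, the highest library exceeded the lowest 5.91-fold for Cdh1, 7.98-fold for Krt8, 11.5-fold for Epcam, 17.8-fold for Csn3 and 46.2-fold for Krt14. Among PyMT-Cxcr2-/- TANs, it was 2.63-fold for Cdh1, 3.68-fold for Krt8, 3.78-fold for Epcam, 4.74-fold for Csn3 and 2.67-fold for Krt14. Summed over the 10 transcripts, the PyMT libraries had 48.9, 62.8, 342 and 464 CPM, the PyMT-Cxcr2-/- libraries 250, 326, 85.6 and 120 CPM, and the WT BM libraries 0.0600, 0.217, 0.516 and 0.280 CPM.

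The order of the 8 TAN libraries was much the same from gene to gene. PyMT replicate 4 was the highest library for 5 of the 10 genes (Krt8, Krt18, Csn2, Csn3 and Wap) and among the top 3 for all 10. PyMT replicate 3 was the highest for 4 (Krt14, Krt5, Epcam and Cdh1), and PyMT-Cxcr2-/- replicate 2 for Krt19. At the other end, PyMT replicate 1 was among the lowest 3 for all 10 genes, and PyMT replicate 2 for 9. Csn2 and Wap departed from this order in PyMT replicate 3, which ranked 6 for Wap and had no Csn2 count, while it ranked 3 for Csn3 and 1 for the basal keratins and adhesion transcripts. PyMT-Cxcr2-/- replicate 2 ranked 2 for Csn2, Csn3, Wap and Cdh1, 3 for Epcam, 6 for Krt14 and 5 for Krt5.

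**Figure D3:**
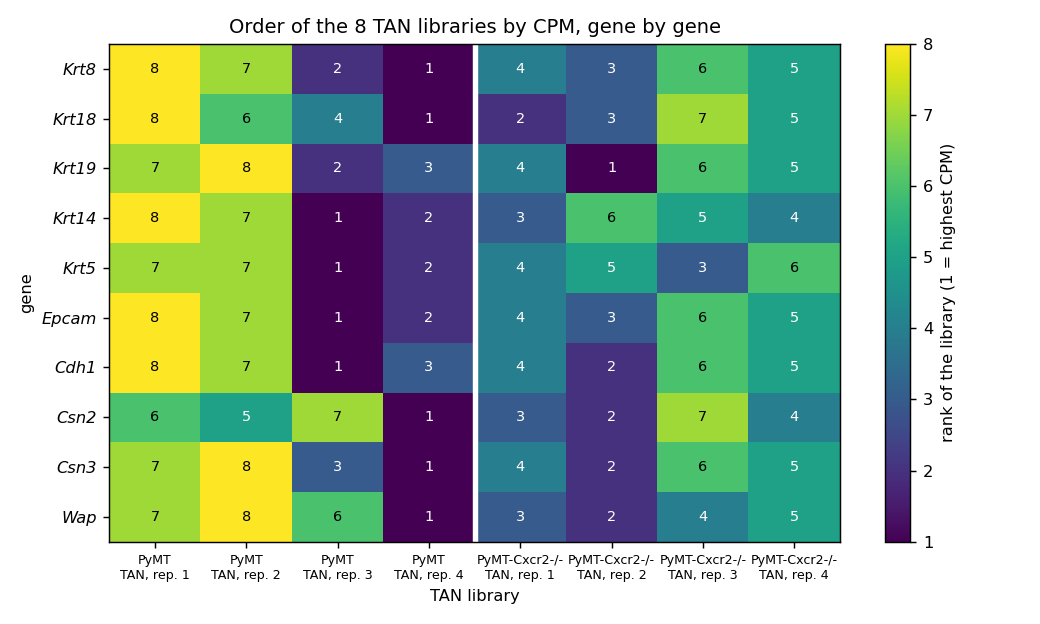
Rank of each TAN library (columns, 4 PyMT and 4 PyMT-Cxcr2-/-) by CPM for each transcript, from 1 for the highest CPM to 8 for the lowest, with ties sharing a rank. PyMT replicate 4 was in the top 3 for all 10 transcripts, PyMT replicate 1 in the lowest 3 for all 10, and PyMT replicate 3 ranked 4 or better for all but Csn2 and Wap.

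Co-variation was tested for 8 pairs within the 4 groups of genes, on log2 CPM (prior count of 2) with the mean of each group of TANs removed, over the 8 TAN libraries. All pairs share the same libraries, depth and scaling factors. Epcam and Cdh1 had r = 0.987 (two-sided exact permutation p = 2.48e-05, adjusted p = 0.000198 over 8 pairs) and the same order in all libraries (rho = 1, exact p = 4.96e-05, adjusted p = 0.000397). Without the 2 libraries farthest from the median of Epcam, r was 0.980. Krt8 and Krt18 had r = 0.953 (exact permutation p = 0.00102, adjusted p = 0.00407) and rho = 0.905 (exact p = 0.00456, adjusted p = 0.0159), and r = 0.910 without the 2 farthest libraries. Krt8 and Krt19 had r = 0.963 (exact permutation p = 0.00377, adjusted p = 0.00706), with rho = 0.857 (exact p = 0.0107, adjusted p = 0.0171) and r = 0.984 without the 2 farthest. Krt18 and Krt19 had r = 0.880 (exact permutation p = 0.0149, adjusted p = 0.0170), with rho = 0.714 (exact p = 0.0576, adjusted p = 0.0768) and r = 0.875 without the 2 farthest.

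For Krt14 and Krt5, r was 0.878 (exact permutation p = 0.00441, adjusted p = 0.00706) and rho 0.874 (exact p = 0.00794, adjusted p = 0.0159). This relation rested on PyMT TANs, with r = 0.976 among their 4 libraries and -0.0264 among the 4 PyMT-Cxcr2-/- libraries, and without the 2 farthest libraries r was 0.763 (exact permutation p = 0.0764). The difference between the groups was not tested. Csn3 and Wap had r = 0.808 (exact permutation p = 0.00414, adjusted p = 0.00706) and rho = 0.881 (exact p = 0.00724, adjusted p = 0.0159), and r = 0.624 (exact permutation p = 0.149) without the 2 farthest libraries. Csn2 and Wap had r = 0.854 (exact permutation p = 0.0111, adjusted p = 0.0147) but rho = 0.595 (exact p = 0.132, adjusted p = 0.132), and the relation rested on PyMT replicate 4 and PyMT-Cxcr2-/- replicate 2, without which r was -0.0383. Csn2 and Csn3 did not pass, with r = 0.618 (exact permutation p = 0.105, adjusted p = 0.105), rho = 0.619 (exact p = 0.115, adjusted p = 0.131) and r = -0.131 without the same 2 libraries. Thus 7 of 8 pairs passed at an adjusted p under 0.05 when libraries were permuted over both groups, but 3 of 8 (Krt8 with Krt18, Epcam with Cdh1 and Csn3 with Wap) when they were permuted within each group, an alternative chosen after seeing the data.

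**Figure D4:**
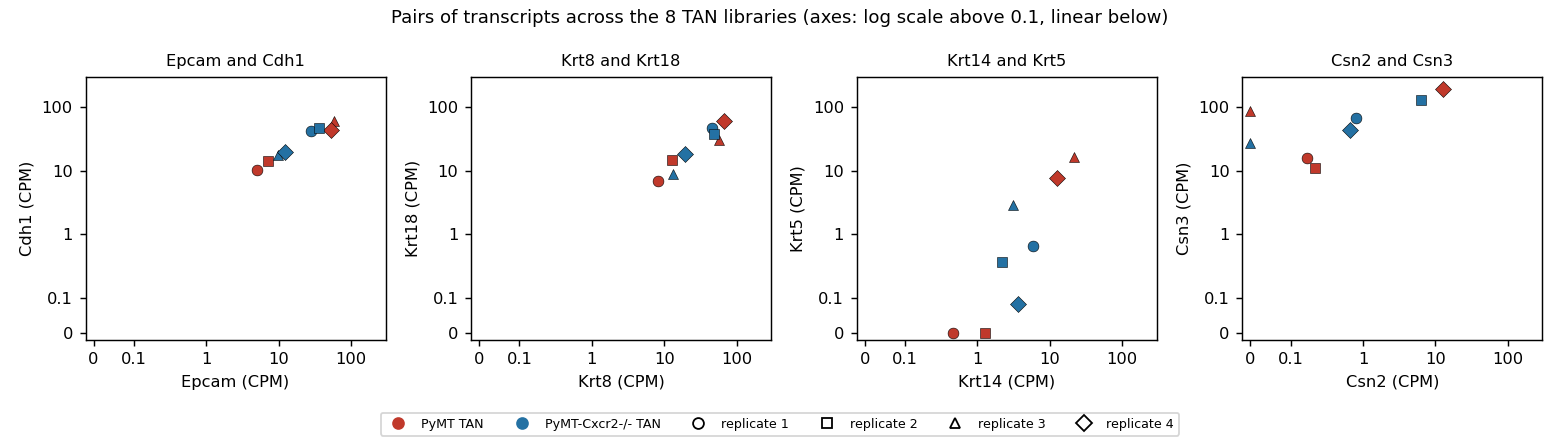
CPM of 4 pairs of transcripts in the 8 TAN libraries, with 1 point per mouse and both axes logarithmic above 0.1 CPM and linear below. Epcam with Cdh1 (r = 0.987) and Krt8 with Krt18 (r = 0.953) lie along a line in both groups, Krt14 and Krt5 do so among PyMT TANs, and for Csn2 and Csn3 PyMT replicate 4 and PyMT-Cxcr2-/- replicate 2 stand above the rest.

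Over all 45 pairs of the 10 transcripts, r was above 0 for 44 and above 0.5 for 39, with a median of 0.752, from -0.0220 for Krt5 with Csn2 to 0.989 for Krt8 with Epcam. The lowest values joined Csn2 with the basal keratins, Krt14 with Csn2 being at 0.0950. With the other milk proteins the basal keratins had higher values, at 0.745 for Krt14 with Csn3, 0.710 for Krt5 with Csn3, 0.421 for Krt5 with Wap and 0.349 for Krt14 with Wap. Krt8 with Csn3, a luminal keratin and a milk protein, were at 0.935.

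Ratios of counts within a library show the same, without any scaling between libraries. Epcam ran between 0.565 and 1.01 counts per Krt8 count, Krt18 between 0.536 and 1.15 and Cdh1 between 0.655 and 1.37 in the 8 TAN libraries, over which Krt8 itself went from 8.27 to 66.0 CPM. Csn3 ran between 0.853 and 2.93 counts per Krt8 count. Krt14 ran from 0.0456 counts per Krt8 count in PyMT-Cxcr2-/- replicate 2 to 0.376 in PyMT replicate 3, an 8.26-fold range compared to 1.78-fold for Epcam. Krt5 went from none to 0.959 counts per Krt14 count, and Csn2 from none to 0.0660 counts per Csn3 count.

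Each transcript was also compared with the mean profile of the other 9 across the 8 TAN libraries. Csn3 (r = 0.972), Krt8 (0.966) and Epcam (0.964) were closest to it, followed by Krt19 (0.925), Cdh1 (0.917), Krt18 (0.903), Krt14 (0.760), Wap (0.756), Krt5 (0.624) and Csn2 (0.418). Of 11649 genes with a mean log2 CPM of at least 1 in TANs, 0.292% followed the profile of the other 9 as closely as Csn3 did, 0.455% as closely as Krt8 and 26.9% as closely as Csn2. The 5 genes outside the list with the highest r to the mean profile of all 10 were Mansc1 (0.993), Ehf (0.992), Scoc (0.991), Prdx4 (0.990) and Efna5 (0.989). Ehf, an ETS transcription factor of epithelia, was at 0.0150 ± 0.0300 CPM in WT BM neutrophils, compared to 26.5 ± 24.9 CPM in PyMT and 21.1 ± 11.2 CPM in PyMT-Cxcr2-/- TANs. In the order PyMT, PyMT-Cxcr2-/- and WT BM, Mansc1 had 4.31 ± 3.49, 4.47 ± 1.53 and 0.0949 ± 0.0416 CPM, and Efna5, an ephrin ligand, 2.52 ± 2.89, 3.29 ± 2.10 and 0.0155 ± 0.0310 CPM. Scoc (8.72 ± 5.06, 6.98 ± 2.27 and 1.75 ± 0.417 CPM) and Prdx4, a peroxiredoxin of the secretory pathway (6.59 ± 4.13, 6.69 ± 2 and 1.92 ± 0.497 CPM), were also measured in WT BM neutrophils.

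Other genes of the mammary epithelium were then examined. Of 28 other luminal genes, 23 passed the filter in PyMT TANs compared to WT BM neutrophils, and 15 were higher and 1 (Prom1) lower, while of all genes tested 30.1% were called higher and 23.2% lower. For TANs lacking Cxcr2, 24 passed the filter, and 19 were higher and 2 (Prom1 and Dsp) lower, with 34.4% of all genes called higher and 25.1% lower. Of the 28 genes, 10 had no count in any WT BM library and could pass the filter only through their level in TANs, so that these counts are a description. Named after their values were seen, Elf5, the transcription factor of the alveolar lineage, had 12.4 ± 11.4, 10.1 ± 7.17 and 0.0305 ± 0.0352 CPM in the same order of groups, and the prolactin receptor Prlr had 6.19 ± 6.83 and 5.12 ± 2.08 CPM in TANs and no count in WT BM neutrophils. Other genes of this list were expressed by WT BM neutrophils too. The junction protein Jup was at 49.1 ± 16.3, 58.6 ± 3.92 and 60.1 ± 13.8 CPM. Prom1 was lower in TANs, with 8.78 ± 3.19, 11.4 ± 4.73 and 74.3 ± 6.84 CPM. Across the 8 TAN libraries, the 22 luminal genes that could be compared had a median r of 0.893 with the mean profile of the 10 transcripts, and 18 exceeded 0.5, compared to 22.8% of all genes.

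Of 15 other milk and lactation genes, 8 passed the filter, and 7 were higher and 1 lower in both groups of TANs compared to WT BM neutrophils. The 7 were Csn1s1, Lalba, Btn1a1, Muc15, Mfge8, Plin2 and Spp1, and the lower gene was Xdh. Of all genes tested, 30.1% (PyMT) and 34.4% (PyMT-Cxcr2-/-) were called higher and 23.2% and 25.1% lower. Csn1s1, Lalba, Btn1a1 and Muc15 had no count in WT BM neutrophils and passed the filter through TANs, so that the 7 are a description. Named after their values were seen, the alpha-S1-casein Csn1s1 had 11.8 ± 21.6 CPM in PyMT TANs and 11.8 ± 15.2 in PyMT-Cxcr2-/- TANs, and alpha-lactalbumin Lalba 10.2 ± 9.73 and 11.4 ± 9.76, both without a count in WT BM neutrophils. By contrast Xdh, Plin2 and Spp1 are also made by myeloid cells. Spp1 (osteopontin) went from 7.86 ± 2.39 CPM in WT BM neutrophils to 437 ± 456 in PyMT TANs, and Xdh from 1756 ± 95.4 to 377 ± 73.4. Xdh was also the gene of this list that differed between the TANs, at 761 ± 145 CPM in PyMT-Cxcr2-/- TANs (log2 fold change 1.01 ± 0.182 SE, edgeR adjusted p = 0.0193).

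Of 12 other basal and myoepithelial genes, 3 passed the filter in PyMT TANs compared to WT BM neutrophils (0 higher and 1 lower) and 4 in PyMT-Cxcr2-/- TANs (2 higher and 1 lower). The 2 higher genes were Krt17 and Mylk, and Acta2, an actin of contractile cells, was the lower gene in both comparisons. Krt17 had no count in WT BM neutrophils and passed the filter through TANs, so that its call is a description. It was not tested in PyMT TANs, where it had 2.39 ± 2.63 CPM, compared to 0.672 ± 0.433 CPM in PyMT-Cxcr2-/- TANs. The shares of all genes called were 30.1% higher and 23.2% lower for PyMT, and 34.4% and 25.1% for loss of Cxcr2. Named after their values were seen, the basal transcription factor Trp63 had 0 to 105 counts in the PyMT libraries and 4 to 45 in the PyMT-Cxcr2-/- libraries, and Krt15 at most 37 counts in a library. Only 2 genes of this list could be compared with the mean profile of the 10 transcripts, with r of -0.586 and 0.173.

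Markers of other cells moved between the same groups. All 12 macrophage genes were higher in both groups of TANs than in WT BM neutrophils, while 30.1% (PyMT) and 34.4% (PyMT-Cxcr2-/-) of all genes tested were called higher. None was at 0 in all WT BM libraries. Ms4a7 had only 0 to 6 counts there and Fcgr1 2 to 22, and both passed the filter through TANs. For these genes the calls are a description, and so in part is the count of all 12. The summed level of the macrophage list was 2255 to 5450 CPM in the PyMT libraries, 2472 to 5159 CPM in the PyMT-Cxcr2-/- libraries and 262 to 363 CPM in the WT BM libraries. Adgre1, named because it encodes F4/80, was at 138 ± 51.6, 110 ± 28 and 10.3 ± 1.40 CPM. Across TAN libraries the macrophage genes had a median r of 0.578 with the mean profile of the 10 transcripts, and 9 of 12 exceeded 0.5. Fibroblast genes summed to 0.280 to 2.26 CPM in the WT BM libraries, compared to 2.07, 4.01, 15.8 and 12.9 CPM in replicates 1 to 4 with PyMT alone and 29.5, 40.3, 43.6 and 3.27 CPM with loss of Cxcr2. Of the 9 fibroblast genes, 4 and 7 were tested, and 3 of 4 and 7 of 7 were higher in TANs, where 30.1% and 34.4% of all genes were. With few or no counts in WT BM neutrophils, these genes passed the filter through TANs, so that both counts are a description. Endothelial genes summed to 23.8 to 45.7 CPM in TANs and 16.4 to 24.5 in WT BM neutrophils, T and B cell genes to 16 to 53.4 and 223 to 260, and adipocyte genes to 0.337 to 3.31 and 0.0841 to 0.433. Most of the T and B cell sum in WT BM neutrophils was Cd3d (12.4 ± 3.56, 27.9 ± 8.21 and 221 ± 15.6 CPM), whereas Cd4 was higher in TANs (7.26 ± 3.70, 2.23 ± 0.470 and 0.212 ± 0.206 CPM), both named after their values were seen.

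As a sum, neutrophil genes were abundant in every library and lower in TANs. Compared to WT BM neutrophils, 8 of 11 (PyMT) and 8 of 12 (PyMT-Cxcr2-/-) fell and 1 and 2 rose. Of all genes tested, 23.2% and 25.1% fell and 30.1% and 34.4% rose. The fall of Cxcr2 in PyMT-Cxcr2-/- TANs was set by its deletion. Trem1, 1 of the 2 that rose there, had 0 to 2 counts in WT BM libraries and passed the filter through TANs. The neutrophil list summed to 78427 to 102883 CPM in the WT BM libraries, compared to 16540 to 23071 CPM in the PyMT libraries and 24060 to 36521 CPM in the PyMT-Cxcr2-/- libraries. Ly6g and Ptprc are named because their products were used in the sort. Ly6g was at 35.7 ± 12.2, 125 ± 36.8 and 549 ± 85.3 CPM, and Ptprc, which encodes CD45, at 2680 ± 329, 2991 ± 371 and 3191 ± 150 CPM. Across TAN libraries the neutrophil genes had a median r of -0.544 with the mean profile of the 10 transcripts, and 0 of 11 exceeded 0.5. The part of these other cell types in the levels of the 10 transcripts was not tested.

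**Figure D5:**
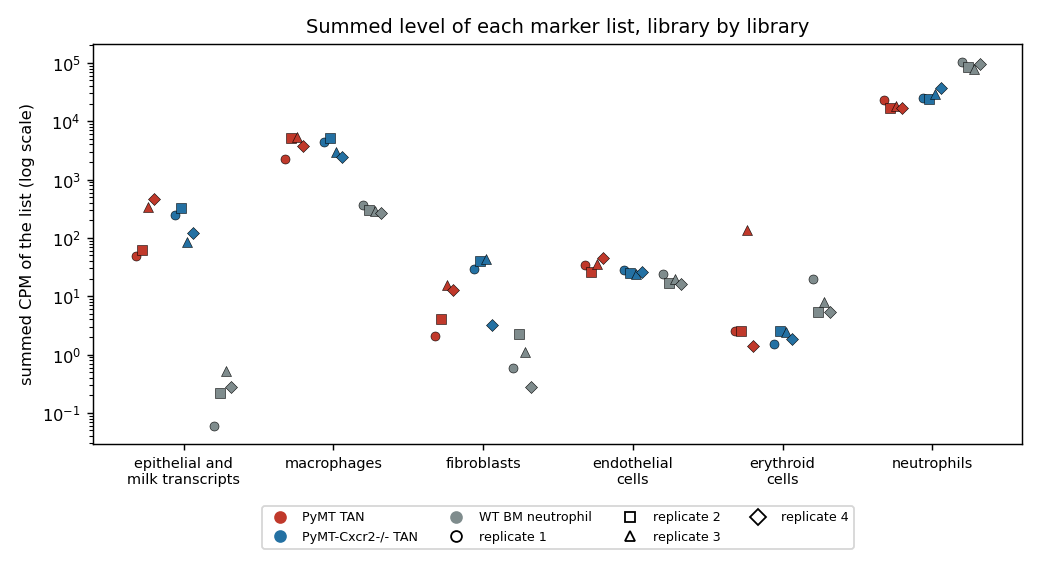
Summed CPM of the 10 epithelial and milk transcripts and of 5 marker lists in each of the 12 libraries (y axis, logarithmic), with 1 point per mouse and the symbol giving the replicate number. The 10 transcripts summed to 48.9 to 464 CPM in TAN libraries and at most 0.516 in WT BM libraries, the neutrophil list to 16540 CPM or more in every library, and the erythroid list to 134 CPM in PyMT replicate 3.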

How the data were processed

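RNA was sequenced from neutrophils sorted from 12 mice in 3 groups of 4, grouped by the sample labels, with 1 library per mouse. The authors depleted ribosomal RNA, sequenced paired-end reads, used STAR to align them to mm10 and counted reads with HTSeq. What was deposited is the raw count of each gene in each library, before the authors' own DESeq2 step. Of the 55335 Ensembl identifiers, 55154 were matched to GENCODE M21. The strand setting of the counting is not given in the sources used here. Depth is given in the text, and the counting intervals of ratios to WT BM neutrophils and the upper limits cover counting error only. No file held columns of other samples.

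CPM used TMM factors over the 12 libraries after the filter on low counts. RPKM used the longest coding transcript. Each comparison was fitted on its 2 groups with edgeR 4.0.16 in R 4.3.3 (filterByExpr, TMM, robust quasi-likelihood), and a gene was called at an adjusted p under 0.05 (Benjamini-Hochberg) with at least 1.5-fold change. The standard error was the size of the log2 fold change over the square root of F, and 95% intervals used the t quantile at the fit's degrees of freedom. DESeq2 1.42.0 was an alternative, as were other scalings, filters and fits, leaving out each mouse, halved counts and a block for the replicate number. Correlations used exact permutation in SciPy 1.17.1. The procedures were tested on simulated counts. No 2 libraries of a group were alike within sampling noise.

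The text names the 10 genes, Cxcr2, the 5 genes most like them, and of each marker list those with the highest means in TANs or in WT BM neutrophils, plus genes said to be named after their values were seen. A gene that this rule selects from a marker list is not reported here. The genes and the marker lists were chosen with earlier results of these data known. RefSeq promoters were matched for 7 of the 10 genes, and not for Krt19, Cdh1 and Csn3.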

Additional observations from a re-analysis of the deposited data

Results flagged for a closer look

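In 6 of the 24 groups of 4 libraries in which a transcript had any count, 1 library was farther from the others than Dixon's 95% limit allows. Chance gives about 1 in 20 where values are normally distributed and groups independent, neither of which holds here, so that the 6 are not compared with that rate. Csn2 was at 12.7 CPM in PyMT replicate 4, with the next PyMT library at 0.214 CPM, and at 6.34 CPM in PyMT-Cxcr2-/- replicate 2, with the next library of its group at 0.792 CPM. Wap stood apart in the same 2 libraries, at 2.37 CPM in PyMT replicate 4 (next 0.205) and at 1.33 CPM in PyMT-Cxcr2-/- replicate 2 (next 0.339). In WT BM replicate 3, Epcam and Wap were each at 0.115 CPM, that is 4 counts each, with none in the other 3 WT BM libraries, and 3 libraries at 0 beside 1 that is not exceed the limit by construction. That library also had the most Cdh1 counts of the 4, 10 compared to 2 to 6.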

How the results depend on the processing

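The 7 genes called higher in each comparison with WT BM neutrophils were counted as 6 to 10 under all alternatives for PyMT TANs and 7 to 10 for PyMT-Cxcr2-/- TANs, since the filter admits more or fewer of the 10, and 0 of 10 were called between the TANs under all of them. Without a filter on low counts, Krt14 missed the threshold in PyMT TANs (adjusted p = 0.0763). Without WT BM replicate 3, which held all 4 Epcam counts, the fitted log2 fold change of Epcam over WT BM neutrophils went from 9.95 to 13.19 in PyMT TANs and from 9.51 to 12.86 in those lacking Cxcr2, and a fit against libraries at 0 is no bound. Of 8 pairs, 7 passed and 3 did so with pairings permuted within groups, and 5 to 8 passed when a mouse was left out.

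Between the TANs, uncalled estimates near 0 changed sign. With the replicate number as a block, which left 7, 7 and 0 genes called in the 3 comparisons, the log2 fold change was 0.10 for Krt8, 0.021 for Epcam, 0.21 for Cdh1, 1.51 for Csn2, 0.42 for Csn3 and 0.40 for Wap, and was -0.27 for Krt14 and -0.43 for Krt5. Same-numbered mice are different animals, and the correlation of their deviations was between -0.208 and -0.0681, so that the numbers do not pair them. With library totals only, Krt18 was at -0.18 and Krt19 at -0.15, and with a filter of at least 1 CPM in 4 libraries at -0.0065 and -0.0043. Cdh1 was at 0.0311 with RLE size factors, 0.0604 without a filter, 0.0299 with DESeq2 and 0.0093 with counts halved. Leaving out each mouse gave -0.48 to 0.27 for Krt8, -0.37 to 0.71 for Krt18, -0.61 to 0.45 for Krt19, -0.26 to 0.49 for Cdh1, -1.63 to -0.37 for Krt14, -4.01 to -1.34 for Krt5, -2.75 to 3.85 for Csn2, -0.70 to 0.85 for Csn3 and -1.41 to 1.57 for Wap, the highest Csn2, Csn3 and Wap values being those without PyMT replicate 4. The causes were not tested. Without the 2 farthest libraries, r was -0.131 for Csn2 with Csn3 and -0.0383 for Csn2 with Wap. Depth limits Wap, Csn2 and Krt5 most, which had under 20 counts in 4 to 6 of the 8 TAN libraries.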
